A study of Mus musculus with 10 samples.

Results

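The regions described here were grouped as imprinting control regions that carry methylation on the paternal chromosome, at the genes H19, Meg3, Rasgrf1 and Zdbf2. Whether each of them receives its mark in the germ line was not tested. The regions were chosen by gene name and by no rule on values, but with earlier results of these data known. For each gene a window of the mm10 genome was set around the known region, with 1 further window at the Meg3 promoter. The 5 windows held 142 of the 1348062 CpG cytosines in the table used. The data were reduced representation bisulfite sequencing (RRBS) counts, which give, for cytosines near restriction sites, how many reads kept a C (methylated) or turned to a T (unmethylated). Germ cells labelled prospermatogonia were sorted with magnetic beads by the surface antigen CD90.2/Thy1.2 from F1 fetal testes of C3H/HeN mice at gestational day (GD) 18. The 5 arsenic samples came from fetuses whose dams drank water with 85 ppm sodium arsenite from GD 8 to GD 18, and the 5 control samples from fetuses of dams on water without it. No genetic change is named for either group. Cells of 18 embryos were pooled for a sample, so the pool was the replicate and single fetuses or litters could not be followed.

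An imprinting control region is methylated on the chromosome of 1 parent and unmethylated on the other, and the difference sets which parental copy of the neighbouring genes is used. Fetal male germ cells erase the imprints they inherit and then lay down the paternal ones anew on both chromosomes before birth, as prospermatogonia, the cell type named on the labels. At H19, a non-coding RNA gene, methylation of the region upstream of the gene keeps out the insulator protein CTCF and so lets the growth factor gene Igf2 reach shared enhancers. At Meg3 (Gtl2), also a non-coding RNA gene, the intergenic region (IG-DMR) receives its mark in the germ line, whereas the promoter gains methylation after fertilisation. Rasgrf1 codes for an exchange factor for Ras proteins and is controlled from a methylated region and a block of repeats far upstream of its promoter. Zdbf2 codes for a zinc finger protein and is expressed from the paternal copy, with methylated sequence upstream of the gene.

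RRBS read only a small share of each window. Set against 2366 cytosines in CpG positions of the 5 windows, 142 (6.0%) had the required coverage of at least 10 reads in every sample. They lay on 27 fragments between CCGG sites, and 141 of them were at CpG positions of the reference. Coverage was densest in the 3001 bases of the Meg3 promoter window, with 53 cytosines measured against 206 in CpG positions (25.73%), between chr12:109540155-109541316. The 1 measured cytosine at no reference CpG was among these 53. The Zdbf2 window of 30001 bases had 60 of 1220 (4.918%), spread over chr1:63245284-63273317, of which 31 were at the start site of the gene. In the 7501 bases of the H19 window 18 of 372 (4.839%) were measured, over chr7:142575795-142581387. The Rasgrf1 window of 12001 bases had 8 of 314 (2.548%), all in chr9:89878077-89878315. Least was read in the 4501 bases of the Meg3 IG-DMR, with 3 of 254 (1.181%), in chr12:109529532-109529733. The levels below therefore stand for these cytosines and not for whole regions.

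The sequences shown first are those of the H19 region that hold the core of the CTCF site, since they are what the methylation there is known to act on. The 14 letters of the CTCF core, with any base at positions 6 and 9 and fixed letters at the rest, were searched on both strands of GRCm38, the mm10 sequence of strain C57BL/6J, and are in capitals below. The H19 window held 3 matches and the other windows 0, against 0.0159% of all genome tiles of the same length with a match. The letters were searched because they are known at H19, so their rarity elsewhere is no test of the region. A CTCF site that differs at a fixed letter would not be found, so 0 matches do not show that a window lacks one. All 3 matches lay on the minus strand, which is the strand of H19, at chr7:142580309-142580322, chr7:142580764-142580777 and chr7:142582034-142582047.
H19 CTCF match 1: agacgatgCCGCGTGGTGGCAGtacaatac
H19 CTCF match 2: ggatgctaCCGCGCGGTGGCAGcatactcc
H19 CTCF match 3: gggagttgCCGCGTGGTGGCAGcaaaatcg
No cytosine inside any of the 3 was measured, and the nearest measured one was 865, 410 and 647 bases away.

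The cytosines that were read in the part of the H19 window 2 kb or more upstream of the start site lay between the second and the third match, in 3 CpG dinucleotides. Their plus-strand contexts are given with the CpG in capitals, because the H19 result below rests on them (chr7:142581173-142581202, chr7:142581216-142581245 and chr7:142581372-142581401).
H19 upstream CpG 1: ttaacaaggctctcCGggacagtgcaaaac
H19 upstream CpG 2: ctttgccataagtaCGattatctgccacaa
H19 upstream CpG 3: ttgcagccctgagcCGgagatcattagcat

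The Meg3 IG-DMR and the Rasgrf1 region were read at few CpG dinucleotides, of which 2 and 4 are shown, again on the plus strand with the CpG in capitals, to show what their levels stand for. Those of the IG-DMR lay at chr12:109529518-109529547 and chr12:109529718-109529747. Those of Rasgrf1 lay at chr9:89878063-89878092, chr9:89878082-89878111, chr9:89878147-89878176 and chr9:89878300-89878329.
IG-DMR CpG 1: gcatcctggctcacCGttgtctagaaacac
IG-DMR CpG 2: ctactcctgagcccCGggattcctgactcc
Rasgrf1 CpG 1: accaccccaaatccCGgacttccctgttgt
Rasgrf1 CpG 2: ttccctgttgtaatCGtcactaattctgct
Rasgrf1 CpG 3: ttcattatatatttCGagatcagaaaaagt
Rasgrf1 CpG 4: gatagaaaccatgcCGgctcagaaaatgtc

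A second motif was searched because the protein ZFP57, which keeps imprints after fertilisation, is known to bind the letters TGCCGC when methylated. Both strands together held 29 matches, of which 6 were in the H19 window, 10 in the IG-DMR, 1 at the Meg3 promoter, 9 at Rasgrf1 and 3 at Zdbf2. In 2 places at H19 these letters overlapped a CTCF match. Of genome tiles as long as the respective window, 32%, 21.6%, 15.4%, 44.3% and 71.5% held at least 1 match, so a match at Zdbf2 is common for its length. A measured cytosine fell inside 1 of the 29, at the Meg3 promoter, with a mean level of 28.99%.

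The samples were first compared outside the windows. CpG calls per sample ranged from 44207245 to 60504881 in the control group and from 56551174 to 66570870 in the arsenic group, with a median coverage of 25 to 40 reads. Arsenic sample 1 stood apart, with a mean level over the whole table of 42.1% against 45.2 to 47.3% in the other 9. The label of the cells was checked with 14 promoters, of which 10 were covered by 193 cytosines, such as those of Dazl and Ddx4, which germ cells keep free of methylation and body cells do not. Their mean level was 52.1 to 61.6% in control samples and 45.2 to 70.5% in arsenic samples, and no covered promoter had a mean under 38% in either group. A list of 9 covered promoters with a maternal imprint, such as Snrpn and Mest, which body cells carry on 1 copy and fetal male germ cells on none, stood at 34.6 to 41.4% in control and 25.7 to 53.6% in arsenic samples. Neither list was near 0 in any sample. The share of other cells in the pools was not measured, and its part in the levels of the windows was not tested.

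The paternally methylated windows did not share a common level. The Meg3 IG-DMR was highest, at 66.6% ± 8.14 (SD over 10 samples), followed by H19 at 53.8% ± 4.98, Rasgrf1 at 43.3% ± 8.99, the Meg3 promoter at 30.4% ± 4.88 and Zdbf2 at 15.3% ± 2.90. Each level is the unweighted mean over the measured cytosines of a window. The IG-DMR was above H19 by 12.8 points in 10 of 10 samples (exact sign-flip permutation test, two-sided, p = 0.00195, the smallest p that 10 samples allow). This holds for the whole H19 window, which joins gene, start-site and upstream cytosines. The 4 cytosines 2 kb or more upstream of H19 averaged 68.7% ± 12.7 (SD over 10 samples), not below the IG-DMR, and this pair was not tested. H19 was above Rasgrf1 by 10.5 points in 9 of 10 samples (exact sign-flip permutation test, p = 0.00586). Rasgrf1 was above the Meg3 promoter by 13.0 points, and the Meg3 promoter above Zdbf2 by 15.1 points, each in 10 of 10 samples (exact sign-flip permutation test, p = 0.00195 for both). The last of these steps rested on the 31 Zdbf2 cytosines within 1 kb of the start site, which were near 0. Over the 29 others Zdbf2 had 30.9% ± 5.92 (SD over 10 samples), and the Meg3 promoter differed from it by -0.56 points (exact sign-flip permutation test, p = 0.619).

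**Figure D1:**
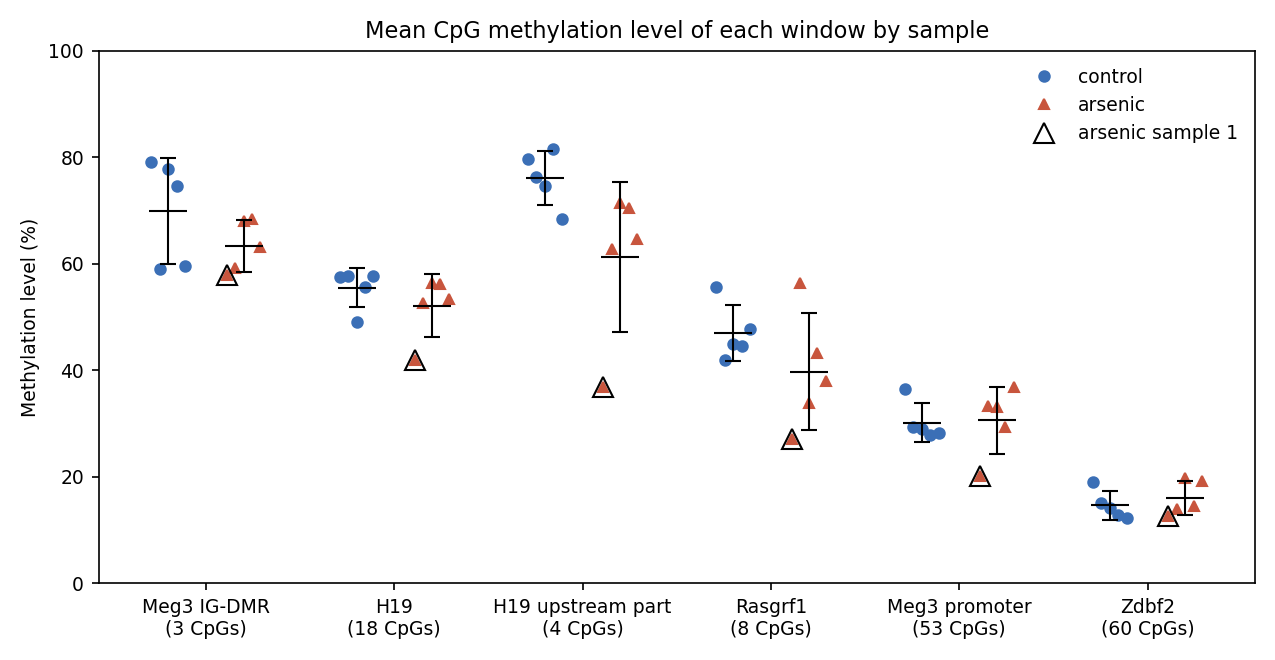
Methylation level in percent (vertical axis) of each window and of the H19 upstream part (horizontal axis), with 1 point per sample, circles for the 5 control and triangles for the 5 arsenic samples, and bars for the mean ± SD of each group. The groups overlap in every column, and arsenic sample 1 (outlined) is the lowest of 10 samples in all columns but Zdbf2.

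Compared with the rest of the same libraries, only the Meg3 windows and Zdbf2 kept 1 direction against the whole table in every sample. The IG-DMR was 21.0 points above the whole-table mean in 10 of 10 samples, and the Meg3 promoter and Zdbf2 differed from it by -15.3 and -30.4 points, lower in 10 of 10 (exact sign-flip permutation tests, p = 0.00195 each). Without its start-site cytosines Zdbf2 differed from the whole table by -14.7 points, still lower in 10 of 10 samples (exact sign-flip permutation test, p = 0.00195). H19 was 8.15 points above it in 9 of 10 samples (exact sign-flip permutation test, p = 0.00391), but against CpGs outside promoters alone the difference was -0.27 points (exact sign-flip permutation test, p = 0.830). The upstream part of H19 alone was 23.0 points above the whole table and 14.6 above CpGs outside promoters, each in 9 of 10 samples (exact sign-flip permutation tests, p = 0.00391 and p = 0.00781). Rasgrf1 differed from the whole table by -2.31 points, less than the spread of its differences (exact sign-flip permutation test, p = 0.387), and from CpGs outside promoters by -10.7 points (exact sign-flip permutation test, p = 0.00781).

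The closest class of regions for comparison was the maternally methylated promoter list. Germ cells of this stage are known to be setting the paternal mark and to lack the maternal one. In these pools, however, the list averaged 38.8% ± 6.87 (SD over 10 samples). The differences below thus compare levels only, and which cells the levels came from was not tested. The IG-DMR was 27.8 points above the list in 10 of 10 samples (exact sign-flip permutation test, p = 0.00195), and H19 was 15.0 points above it in 9 of 10 (exact sign-flip permutation test, p = 0.00391). In its upstream part H19 was 29.9 points above the list in 10 of 10 samples (exact sign-flip permutation test, p = 0.00195). Rasgrf1 was 4.54 points above the list on average and higher in 8 of 10 samples, which did not exceed the spread (exact sign-flip permutation test, p = 0.213). The Meg3 promoter and Zdbf2 went the other way, with differences of -8.44 and -23.5 points (exact sign-flip permutation tests, p = 0.00391 and p = 0.00195). The 29 Zdbf2 cytosines away from the start site differed from the list by -7.89 points and were lower in 9 of 10 samples (exact sign-flip permutation test, p = 0.00977).

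**Figure D2:**
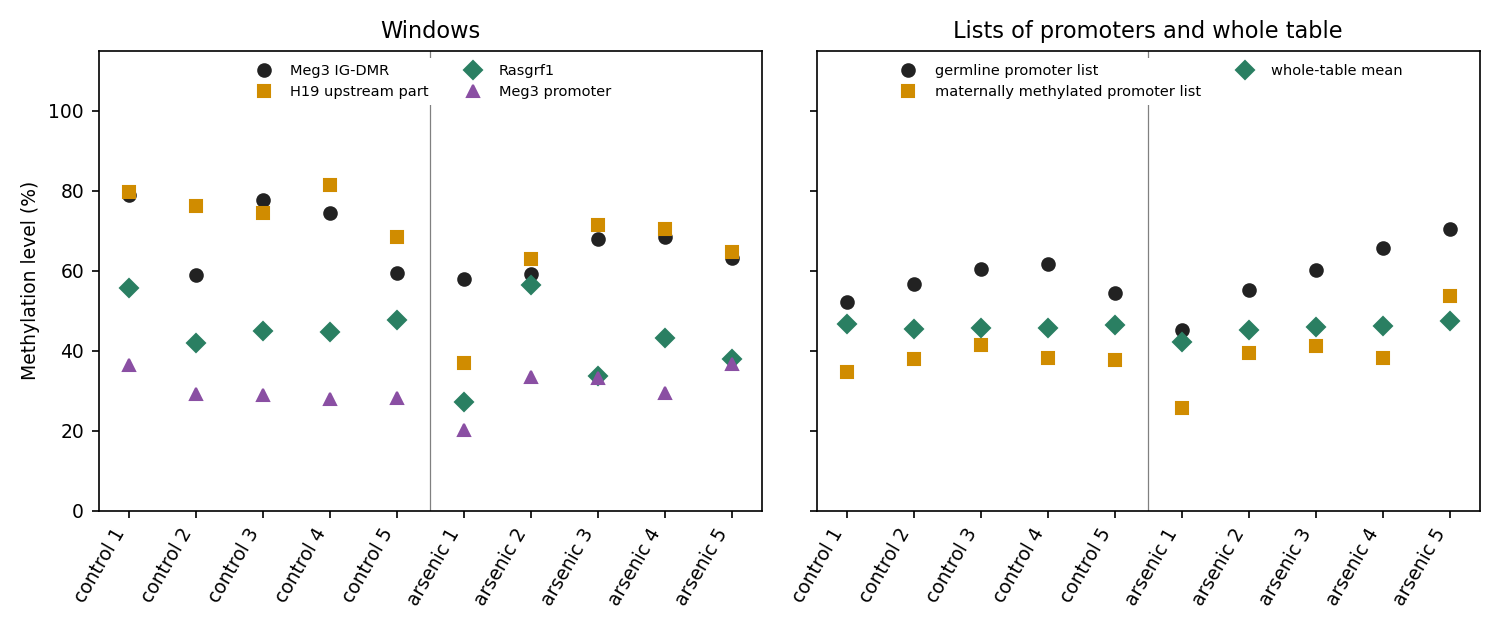
Methylation level in percent (vertical axis) in each of the 10 samples (horizontal axis, control left and arsenic right of the line), with the IG-DMR, the H19 upstream part, Rasgrf1 and the Meg3 promoter in the left panel and the germline promoter list, the maternally methylated promoter list and the whole table in the right panel. Arsenic sample 1 is lowest in all 7 series, and arsenic sample 5 is highest in the 3 series of the right panel.

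Flanking sequence gave a mixed picture. Against CpGs within 50 kb on either side, H19 stood 13.7 points higher in 10 of 10 samples (exact sign-flip permutation test, p = 0.00195) and Rasgrf1 13.9 points higher in 9 of 10 (exact sign-flip permutation test, p = 0.00391). With flanks of 20 kb, H19 differed from 8 flanking cytosines by -9.10 points and Rasgrf1 from 20 by -20.2 points (exact sign-flip permutation tests, p = 0.00586 and p = 0.00195). The IG-DMR, at 66.6%, differed from its 50 kb flanks, at 67.5%, by less than the spread (exact sign-flip permutation test, p = 0.750). The Meg3 promoter and Zdbf2 differed from their 50 kb flanks by -41.96 and -46.9 points, lower in 10 of 10 samples (exact sign-flip permutation tests, p = 0.00195 each). For Zdbf2 the 20 kb flanks held only 2 measured cytosines, at 18.3%, and the difference from them was -2.98 points, within the spread (exact sign-flip permutation test, p = 0.197). The 29 Zdbf2 cytosines away from the start site differed from the 50 kb flanks by -31.3 points and stood 12.6 points above those 2 cytosines (exact sign-flip permutation tests, p = 0.00195 and p = 0.00391).

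Arsenic exposure was then compared with control in each window. H19 levels were 57.5, 57.6, 49.1, 55.6 and 57.7% in control samples 1 to 5 and 41.9, 52.7, 56.3, 56.2 and 53.3% in arsenic samples 1 to 5. Control sample 3 and arsenic sample 1 were low for their groups, and the groups overlapped. The means were 55.5% ± 3.69 and 52.1% ± 5.91 (SD, n = 5 each), a difference of -3.41 points within the spread (two-sided exact permutation test of the group means, p = 0.341). With arsenic sample 1 left out, -0.87 points remained (exact permutation test, p = 0.714). Over the 14 of 18 cytosines with at least 20 reads in every sample, none of them in the upstream part, the difference was -0.13 points (exact permutation test, p = 0.968). The smallest p that 5 against 5 samples can give is 0.00794.

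The H19 window was not uniform along its length. In the exon near the 3′ end of H19, 3 cytosines averaged 77.3% in both groups, and the most methylated cytosine of the window was there, at 86.6% (chr7:142575795, plus strand). Near the start site of the gene, 7 cytosines of the minus strand, 6 of them in the first exon, were lowest, at 32.3% ± 6.89 in control and 34.0% ± 7.98 in arsenic samples (SD, n = 5 each), with a minimum of 27.6% at chr7:142578045. Between 625 and 722 bases upstream, 4 cytosines averaged 59.1% ± 5.87 and 55.7% ± 5.47. The start site thus lay at a low point between the gene body and the upstream sequence.

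In the upstream part, 3044 to 3244 bases before the start site (chr7:142581187-142581387), the 4 measured cytosines were less methylated in the arsenic group. Control samples 1 to 5 had 79.8, 76.3, 74.5, 81.5 and 68.4%, and arsenic samples 1 to 5 had 36.8, 62.8, 71.3, 70.4 and 64.6%. Every arsenic sample was below the control mean, but arsenic samples 3 and 4 were above control sample 5. The level was 76.1% ± 5.10 in control and 61.2% ± 14.1 in arsenic samples (SD, n = 5 each), a difference of -14.9 points (exact permutation test, two-sided, unadjusted p = 0.0238). Among the windows, their parts and the 13 stretches compared, no other set of cytosines had an exact permutation p under 0.05. Leaving out arsenic sample 1 brought the difference to -8.81 points (exact permutation test, p = 0.0397), whereas without control sample 1 or control sample 4 it was -14 or -13.6 points and no longer passed 0.05 (exact permutation tests, p = 0.0556 and p = 0.0635).

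The reads behind the H19 upstream part were few. It had 59 to 159 calls per sample over the 4 cytosines, with a coverage of 13 to 53 reads. In arsenic sample 1, 33 of 93 calls were methylated, or 35.5% (95% Wilson interval 26.5 to 45.6%), and in control sample 2, the shallowest, 45 of 59, or 76.3% (64.0 to 85.3%). Such intervals cover counting error only, since reads without molecular identifiers are not independent molecules. At the cytosine with the largest drop of the window (chr7:142581231, minus strand), controls 1 to 5 had 64.3, 86.7, 67.9, 82.4 and 52.4%, and arsenic samples 1 to 5 had 14.3, 55.6, 53.8, 74.1 and 57.7%. Arsenic sample 1, with 4 methylated of 28 reads, lay far below the others, whose levels overlapped with the controls. The largest rise of the window was 4.73 points, at chr7:142575817 in the last exon, from 68.9% ± 7.24 to 73.7% ± 5.43 (SD, n = 5 each).

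**Figure D3:**
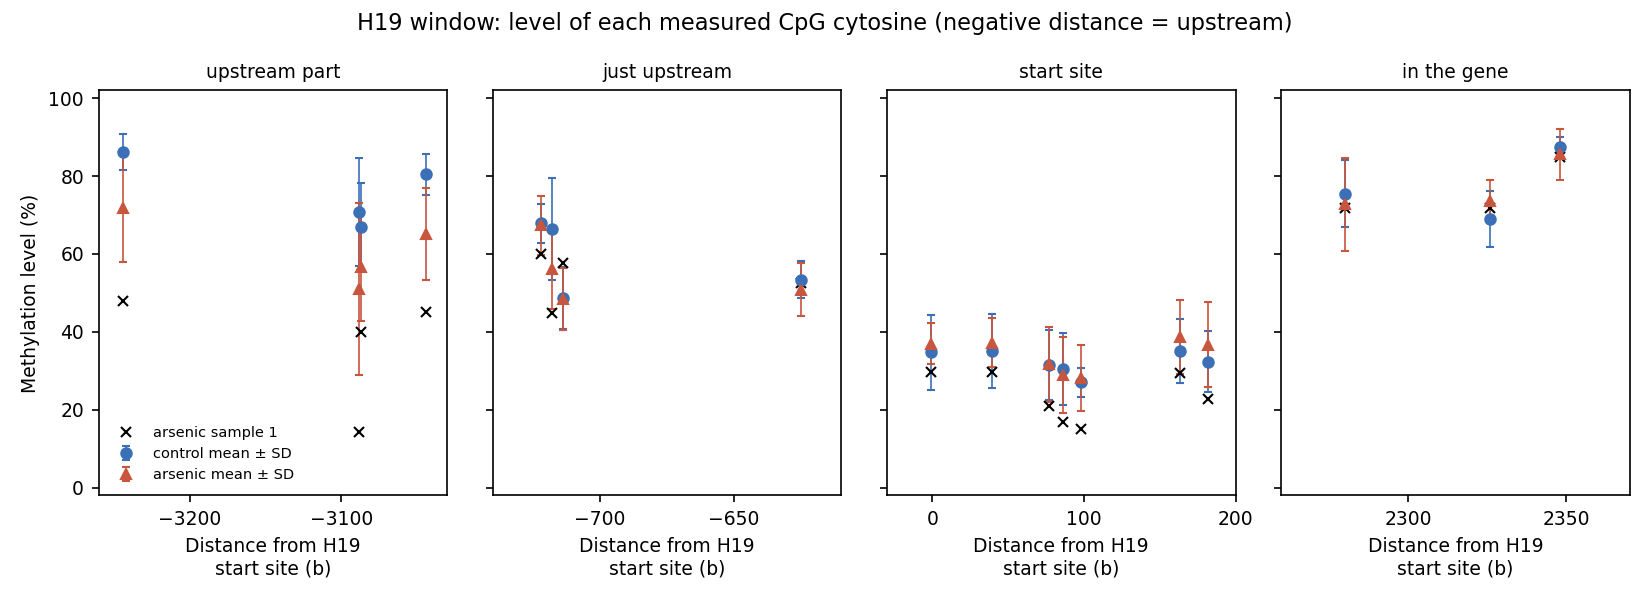
Methylation level in percent (vertical axis) of the 18 measured cytosines of the H19 window by distance from the H19 start site in bases (horizontal axis, 4 panels with separate scales, negative upstream), with the mean ± SD of the 5 control samples (circles) and the 5 arsenic samples (triangles) and arsenic sample 1 as crosses. The 4 cytosines of the upstream part have a lower arsenic mean, and the 7 near the start site have the lowest levels in both groups.

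At the Meg3 IG-DMR, control samples 1 to 5 had 79.1, 58.9, 77.7, 74.5 and 59.5% and arsenic samples 1 to 5 had 58.0, 59.2, 68.0, 68.4 and 63.1%. Controls fell into a higher set of 3 and a lower pair, and the 5 arsenic samples lay under the control mean but not under every control. The means of 69.9% ± 9.93 and 63.3% ± 4.81 (SD, n = 5 each) differed by -6.62 points, within the spread (exact permutation test, p = 0.190). All 3 cytosines had a lower arsenic mean. At chr12:109529733 the levels were 78.6% ± 8.44 in control and 69.9% ± 12.2 in arsenic samples, at chr12:109529533 they were 69.4% ± 10.1 and 61.4% ± 6.08, and at chr12:109529532, the other strand of the same CpG, 61.8% ± 15.2 and 58.7% ± 6.97 (SD, n = 5 each). With 71 to 156 calls per sample on 3 cytosines, this window was read about as thinly as the H19 upstream part.

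The start site of Meg3 lies about 11 kb from the measured IG-DMR cytosines. Levels at the Meg3 promoter were 36.5, 29.3, 28.95, 27.8 and 28.2% in control samples 1 to 5 and 20.2, 33.3, 33.2, 29.4 and 36.8% in arsenic samples 1 to 5. Control sample 1 was high and arsenic sample 1 low for its group. The difference between 30.2% ± 3.59 and 30.6% ± 6.37 (SD, n = 5 each) was 0.39 points (exact permutation test, p = 0.889), and it was -0.41 points once the strands of a CpG were merged. Of the 53 cytosines, 29 had a lower and 24 a higher arsenic mean. Means over all samples ran from 17.7% at chr12:109541299 in an intron to 47.8% at chr12:109540793 upstream of the start site.

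The largest rise at the Meg3 promoter, 13.4 points, was at chr12:109541174, where an intron of Meg3 overlaps an exon of Gm27596, with 34.0% ± 19.3 in control and 47.4% ± 15.3 in arsenic samples (SD, n = 5 each). The largest drop, 15.0 points, was at chr12:109540155, where controls ranged from 10 to 66.7% and arsenic samples from 11.4 to 46.3%. This was the 1 of the 142 cytosines that is no CpG in the reference sequence, so its level may not be one of CpG methylation. Neither cytosine separated the groups.

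Strands of the same CpG differed at the Meg3 promoter by more than counting error alone gives. In 17 CpGs read on both strands, the median absolute difference between strands within a sample was 15.5 points, against 9.91 points expected from the read numbers, and the largest difference was 62.5 points. Rasgrf1 had a median of 15.1 points against 9.77 in its 3 CpGs read on both strands, and Zdbf2 3.68 against 2.18 in 9. The Zdbf2 median was that of a start-site CpG with means of 2.25% and 1.42% on its strands. Away from the start site, Zdbf2 CpGs read on both strands had larger mean differences. These ran from 10.8 points (10.8 expected) at chr1:63266340 to 15.99 points (7.79 expected) at chr1:63266428. H19 and the IG-DMR had 1 such CpG each, with mean differences of 15.2 points against 10.9 expected at H19 and of 6.18 against 10.1 at the IG-DMR, so that the IG-DMR was below the expected value.

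**Figure D4:**
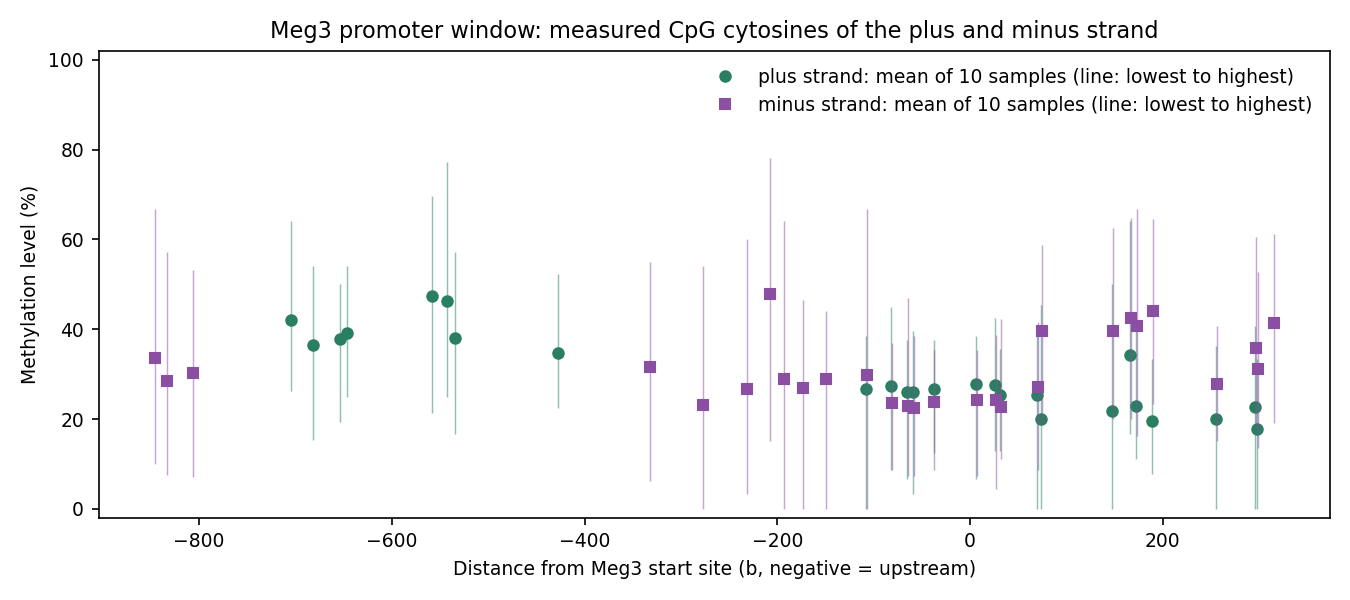
Methylation level in percent (vertical axis) of the 53 measured cytosines of the Meg3 promoter window by distance from the Meg3 start site in bases (horizontal axis, negative upstream), with the mean of 10 samples as circles for the plus and squares for the minus strand and lines from the lowest to the highest sample. Toward the downstream end the minus strand mostly lies above the plus strand, and no cytosine has a mean above 50%.

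Rasgrf1 varied most among the arsenic samples. Control samples 1 to 5 had 55.6, 42.0, 44.9, 44.6 and 47.8%, and arsenic samples 1 to 5 had 27.1, 56.3, 33.8, 43.3 and 38.0%. Arsenic sample 2 was the highest and arsenic sample 1 the lowest of all 10. The difference of -7.24 points between 47.0% ± 5.23 and 39.7% ± 11.02 (SD, n = 5 each) was within this spread (exact permutation test, p = 0.230). Leaving out arsenic sample 2 brought it to -11.4 points, which passed 0.05 (exact permutation test, p = 0.0159), and leaving out arsenic sample 1 to -4.09 points (exact permutation test, p = 0.452). The size also moved with the counting: it was -3.94 points with coverage weights, -4.63 with the strands of a CpG merged and -2.12 over the 4 cytosines with at least 20 reads in every sample (exact permutation tests, p = 0.413, p = 0.373 and p = 0.643).

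All 8 Rasgrf1 cytosines, 31593 to 31831 bases upstream of the gene's start and outside any annotated gene, had a lower arsenic mean, but those of the 2 strands differed in size. On the plus strand, at chr9:89878077, chr9:89878096 and chr9:89878161, the differences were -7.02, -10.4 and -13.0 points. The minus-strand cytosines at chr9:89878097, chr9:89878162 and chr9:89878315 differed by -0.87, -1.04 and -5.49 points. At chr9:89878161, controls 1 to 5 had 68.2, 44.4, 53.6, 66.7 and 65.6% and arsenic samples 1 to 5 had 18.2, 60.7, 31.6, 68 and 55%, so that arsenic samples 1 and 3 were below every control and the other 3 were not. The same CpG on its minus strand had 59.2% ± 13.7 and 58.1% ± 3.27 (SD, n = 5 each).

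Zdbf2 joined sequence of quite different levels. Window levels were 18.96, 15.1, 14.1, 12.8 and 12.2% in control samples 1 to 5 and 12.6, 13.9, 19.7, 14.6 and 19.2% in arsenic samples 1 to 5, with full overlap of the groups. The means of 14.6% ± 2.69 and 15.99% ± 3.25 (SD, n = 5 each) differed by 1.39 points (exact permutation test, p = 0.460). This was 0.46 points without arsenic sample 3, 2.48 without control sample 1, and 3.42 over the 12 cytosines with at least 20 reads in every sample (exact permutation tests, p = 0.762, p = 0.270 and p = 0.429). The 31 cytosines within 1 kb of the start site, in and before the first exon with its UTR, were nearly unmethylated at 0.42% ± 0.31 and 0.95% ± 0.77. The 29 cytosines farther upstream had 29.8% ± 5.75 in control and 32.1% ± 6.52 in arsenic samples (exact permutation test, p = 0.603).

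Upstream of Zdbf2 the levels again depended on position. The farthest cytosine, 27981 bases upstream (chr1:63245284), was the most methylated of the window at 80.4%. Around 12 kb upstream 7 cytosines had 25.3% ± 7.08 in control and 28.5% ± 6.51 in arsenic samples, and between 6765 and 7212 bases upstream 16 cytosines had 25.8% ± 3.52 and 30.5% ± 9.29 (SD, n = 5 each). The 3 cytosines 10439 to 10743 bases upstream were the most variable, with 76.7, 39.6, 43.6, 37.9 and 10.5% in control samples 1 to 5, which is wider than the whole range of the arsenic samples, 17.5 to 53.7%. That stretch held the largest drop of the window, 13.7 points at chr1:63262564, from 51.9% ± 20.1 to 38.2% ± 13.0, while the largest rise was 11.7 points at chr1:63266483, from 22.3% ± 9.51 to 34.0% ± 19.8. Near the start site 14 cytosines, chr1:63272810 among them, had no methylated read in any sample.

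**Figure D5:**
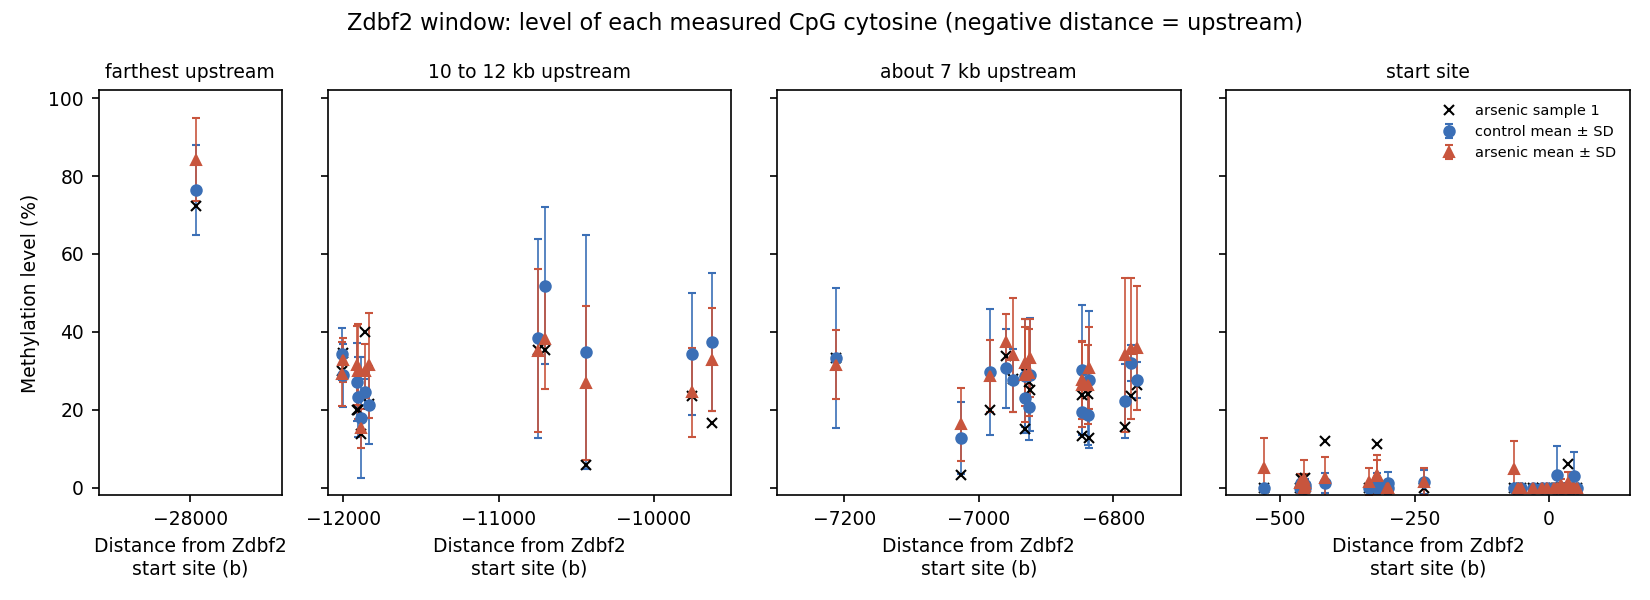
Methylation level in percent (vertical axis) of the 60 measured cytosines of the Zdbf2 window by distance from the Zdbf2 start site in bases (horizontal axis, 4 panels with separate scales, negative upstream), with the mean ± SD of the 5 control samples (circles) and the 5 arsenic samples (triangles) and arsenic sample 1 as crosses. Levels are near 0 at the start site, mostly between 15 and 50% from about 7 to 12 kb upstream, and highest at the farthest cytosine.

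Tests across the whole table made no call in the windows. By logistic regression on the reads, called where the Benjamini-Hochberg q was 0.01 or less and the groups differed by 10 points or more, 0 of 142 window cytosines were differentially methylated, while 2.27% of all CpGs were called (1.48% lower and 0.784% higher in the arsenic group). The smallest q in the windows was 0.0413, at chr7:142581231 of H19. Among the window cytosines 65 had a lower, 63 a higher and 14 an equal arsenic mean, and the median difference was 0 points, as it was over all CpGs. In no cytosine did the groups fail to overlap, against 0.474% of all CpGs without overlap and lower and 0.219% without overlap and higher in the arsenic group.

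Tests with the pool as replicate gave the same count. By limma on log2((methylated + 1)/(unmethylated + 1)), 0 of 142 cytosines had an adjusted p under 0.05, as was so for 0% of all CpGs, and the smallest adjusted p was 0.830. An unadjusted p under 0.05 was reached by 2 of 142, both in the H19 upstream part, against 6% of all CpGs. In summed reads of 13 regions (runs of cytosines at most 100 bases apart) overlapping the windows, limma called 0, as it called 0% of 139746 regions. The smallest unadjusted p was that of the Zdbf2 region at chr1:63272736-63273033, where 0.45% was methylated in control and 1.53% in arsenic samples (limma, unadjusted p = 0.0105, adjusted p = 0.686). Next came the H19 region at chr7:142581187-142581231 (limma, unadjusted p = 0.0358, adjusted p = 0.696), and over all regions 7.09% had an unadjusted p under 0.05. Window cytosines between 20 and 80% varied between samples more than counting error gives, with a median ratio of observed to binomial variance of 2.16 over 105 cytosines, near the 2.33 of all CpGs at such levels.

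A list of 20 promoters in the 4 imprinted domains, that of Rasgrf1 among them, was examined with the windows, and 9 of them held measured cytosines. Most were close to unmethylated. Those of Igf2, the growth factor gene next to H19, had 3.40% ± 1.73 in control and 3.96% ± 0.73 in arsenic samples, and Dio3, which codes for a deiodinase of thyroid hormone in the Meg3 domain, had 2.26% ± 2.38 and 0.96% ± 0.51 (SD, n = 5 each). The promoter of Rasgrf1 itself had 0.89% ± 0.62 and 1.19% ± 0.42, far under its upstream region. The exception was Rian, a non-coding RNA gene downstream of Meg3, with 91.1% ± 4.68 and 85.5% ± 5.05 over 3 cytosines (exact permutation test, p = 0.0873). By limma over 16772 promoters 0 of the 9 passed, as 0% of all promoters did, and 1 of 9 had an unadjusted p under 0.05, against 5.63% of all. It was Mrpl23, a mitochondrial ribosomal protein gene near H19, with 1.79% ± 1.17 in control and 0.45% ± 0.37 in arsenic samples (limma, unadjusted p = 0.0200, adjusted p = 0.881). Its exact p was also under 0.05 (exact permutation test, unadjusted p = 0.0397). In all, 5 of the 9 had a lower and 4 a higher arsenic mean.

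Whether the windows moved with the other measures across samples was examined in 18 relations over the 10 samples. The strongest were those of the Meg3 promoter and of H19 with the whole-table mean. For the Meg3 promoter Pearson's r was 0.83 and Spearman's rho 0.56 (permutation tests, p = 0.00597 and p = 0.0963, adjusted p = 0.107 and p = 0.573). For H19 r was 0.80 and rho 0.45 (permutation tests, p = 0.0288 and p = 0.191, adjusted p = 0.246 and p = 0.573). The Meg3 promoter also rose with the maternally methylated list, with r of 0.71 and rho of 0.48 (permutation tests, p = 0.0410 and p = 0.166, adjusted p = 0.246 and p = 0.573). Without arsenic samples 1 and 5, which lay farthest from the median, these r were 0.30, 0.54 and -0.29, so that the relations rested largely on those samples. None of the 18 passed after adjustment. Arsenic sample 1 was the lowest of 10 in 4 of the 5 windows and in both promoter lists and the whole table, and its part in the lower arsenic means was measured only by leaving it out.

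The promoters whose levels were most like each window over the 10 samples were looked for among 13097 promoters with at least 5 cytosines, by the mean absolute difference of level. Among so many promoters some lie close to almost any mean level, so a small distance does not show shared behaviour across samples. Nearest to H19 were Klk6 and Mmel1, at 2.50 and 2.51 points. For the IG-DMR they were Gm33447 and Gm10286, at 4.21 and 4.37 points, and for Rasgrf1 they were 1700104L18Rik and Tbx21, at 4.72 and 4.93 points. Nearest to Zdbf2 were Ncoa3 and Gm21769, at 1.70 and 1.79 points. The Meg3 promoter was nearest to Gm27596, at 0.693 points, whose promoter shares its cytosines, and then to Rnf20, at 2.80 points.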

How the data were processed

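RRBS libraries of prospermatogonia DNA from 5 control and 5 arsenic pools were analysed. Per the labels and the study's methods, the authors trimmed reads with Trim Galore 0.6.5, mapped them to mm10 with Bismark 0.22.3 and united CpG calls with methylKit 1.22.0, keeping strands apart. The treatment of PCR duplicates and overlapping mates was not given in the sources used here. The deposited values are raw counts of methylated and unmethylated reads per CpG cytosine and sample, with a coverage of at least 10 in all samples. An arsenic sample that the authors excluded for low depth was not analysed here.

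Of 1349101 entries, 1039 outside chromosomes 1 to 19, X and Y were left out. Samples were grouped by title. By the study's methods, a pool held at most 2 fetal testes per dam, and whether pools of a group shared dams is not stated. No source says that pools were from separate breedings, so p-values measure the spread between these samples. In any pair of samples 1.69% of CpGs or fewer had the same counts. Levels were methylated reads over all reads in percent, averaged without weights over a window. The group means of a window were set against every possible regrouping of its 10 samples (exact permutation test), and windows against other sequence by exact sign flips. Neither was adjusted over the windows. Logistic regression (1 degree of freedom, likelihood ratio) and limma 3.58.1 (pseudocount 1) were fitted over all CpGs, regions or promoters with Benjamini-Hochberg adjustment, after being tested on simulated data. Promoters ran from 1 kb upstream to 100 bases downstream of a start site, except that those of the maternally methylated list ran 1 kb to either side. Correlations used 100000 resamples. Annotation was GENCODE M21 on GRCm38. Stretches were runs of cytosines at most 300 bases apart and were set after seeing the data. The members, lists and tests were chosen with earlier results of these data known. Single cytosines were named by a rule. It took all of them in windows with 10 or fewer, and otherwise those with the highest and lowest mean and the largest rise and drop. A CpG of the Rasgrf1 window is not reported singly here. Likeness named the 2 nearest promoters per window.

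The replicate numbers were checked for pairing. Deviations from the group means of same-numbered samples had correlations of -0.015 to 0.037, and 2 of 10 samples were most like the one of their own number, so the numbers were not taken to pair the samples. Alternatives were coverage weights, a coverage of at least 20, removal of the highest 0.1% of coverage, merged strands, other flanks, other promoter and region widths, another pseudocount, an overdispersion F test, each sample left out, and a block for the replicate number. Scripts ran in R 4.3.3 and in Python 3.11.15 with pandas 2.3.3, scipy 1.17.1 and numpy 2.4.6.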

Additional observations from a re-analysis of the deposited data

Results flagged for a closer look

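Samples far from the rest of their group were looked for in 36 sets of 5 samples (each window, part, stretch and list in each group) by Dixon's criterion, which chance meets in about 1 set in 20, or 1.8 of 36. It was met in 5, but the sets overlap, since a window contains its parts and stretches. The flags are thus not independent, and their number was not tested against chance. Arsenic sample 1 was far below the other arsenic samples at H19, with 41.9%, and in the H19 upstream part, with 36.8%. Control sample 3 was far below the other control samples at H19, with 49.1%. At the Meg3 promoter control sample 1 was far above the other controls, with 36.5%. In the Zdbf2 stretch around 12 kb upstream of the start site, arsenic sample 5 was far above the other arsenic samples, with 40.1%.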

How the results depend on the processing

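Of the values that answer a comparison, 366 recomputed ones kept their direction and their side of the threshold, and 27 did not. The Meg3 promoter differed from Zdbf2 by -0.56 points once the near-0 start-site cytosines of Zdbf2 were left out, which was tried after seeing the data. For the others the cause was not tested. At the Meg3 promoter the difference of 0.39 points became -0.28 with coverage weights and -0.41 with merged strands, and ran from -1.15 to 2.99 with 1 sample left out. With 1 sample left out the Rasgrf1 difference ran from -11.4 to -4.09 points and passed 0.05 without arsenic sample 2, and that of the H19 upstream part ran from -17.4 to -8.81 and failed 0.05 without control sample 1 (-14) or control sample 4 (-13.6). Other differences that moved by over 1.5 times did not pass 0.05. With 1 sample left out they ran from -5.02 to -0.87 at H19, from -9.38 to -4.35 at the IG-DMR and from 0.46 to 2.48 at Zdbf2. At coverage of at least 20 they were -0.13 (H19), 1.51 (Meg3 promoter), -2.12 (Rasgrf1) and 3.42 (Zdbf2), and the H19 upstream part had no cytosine left. Logistic calls were 0 to 2 lower (1 without control sample 3, 2 without arsenic sample 2) and 0 to 1 higher (1 without control sample 5).

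With the replicate number as a block, the difference of -14.9 points in the H19 upstream part had an exact sign-flip p of 0.0625, the smallest that 5 pairs allow, and the Cochran-Mantel-Haenszel test with the block called 1 window cytosine lower in the arsenic group. The block changed no other call that was run.

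Against CpGs outside promoters H19 was -0.27 and Rasgrf1 -10.7 points from the rest. With flanks of 20 kb the differences were -9.10 (H19), 6.48 (IG-DMR), -20.2 (Rasgrf1), -2.98 (Zdbf2) and 5.75 points (H19 upstream part), of which the last 2 no longer passed 0.05. The IG-DMR differed from its 50 kb flanks by 0.75 points with coverage weights and by -2.30 to 0.51 with 1 sample left out (0.51 without control sample 2, 0.035 without control sample 5). Rasgrf1 exceeded the maternal list by 2.71 to 6.77 points, and passed 0.05 without arsenic sample 5 (6.77). Among stretches, the difference ran from -2.67 to 1.85 at the 3′ end of H19, from -0.65 to 4.35 at its start site, and from -16.1 to 0.50 in the Zdbf2 stretch 10.4 to 10.7 kb upstream. With 6.0% of the cytosines read and as few as 10 reads at each, differences elsewhere in the windows were not detectable.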
